A study of Rattus norvegicus with 42 samples.

Results

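The comparison described here is that of 6 RNA sequencing libraries from Neat1 -/- cells, 3 taken 30 h after fresh medium was given and 3 taken 18 h after it, out of 42 libraries in all. The cells are GH4C1, an established rat pituitary line of the somatolactotroph type, in which Neat1 was deleted with CRISPR-Cas9 (KO in the following). They were synchronised by a change to fresh medium with horse and fetal calf serum, and RNA was collected at 7 times from 10 to 34 h after it, in 3 replicates per time, from KO cells and from cells that kept Neat1 (wild type, WT). The 6 libraries were chosen by their labels alone, and the times lie 12 h apart. Whether the KO cells were 1 clone is not given in the sources used here. Nor do the labels say that replicates came from separate cultures, so p-values measure the spread between replicate libraries, which may be technical.

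Neat1 is a long non-coding RNA that builds paraspeckles, nuclear bodies that hold proteins such as SFPQ and NONO and keep some RNAs in the nucleus. Cells that are given fresh serum restart their molecular clocks together, so a series of times after the change of medium is used to follow daily rhythms in culture. Times 12 h apart are opposite phases of a daily rhythm. The deposited tables name genes by Ensembl identifiers, which the reference table used here does not pair with symbols. Neat1 itself, the pituitary markers and the pathway lists were therefore not analysed here, the labels were taken as given, and genes are described by how they moved.

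The 6 libraries held 46439892 to 54931581 counts each. The most abundant gene, the same in all 21 KO libraries, took 15.8% to 16.7% of the counts at 18 h and 16.6% to 18% at 30 h. Each library listed 2 to 14 genes at 0. By a chi-square over genes, every pair of replicates differed by more than counting noise, with 10.6 to 54.3 per degree of freedom. The 2 highest values were those of the pairs that contain replicate 1 of 30 h, 54.3 with replicate 2 and 38.3 with replicate 3, against 12.1 between replicates 2 and 3. A difference of at least 2-fold was seen for 345 and 287 genes in these 2 pairs, for 175 genes between replicates 2 and 3 of 30 h, and for 182 to 209 genes between replicates of 18 h. Replicate 1 of 30 h thus stood apart from the others, and counts of called genes are given below with and without it. Its total, 46439892, was close to the 46870423 of replicate 3, and the 10 most abundant genes took 25.4% of its counts against 24.5% and 25.5% in replicates 2 and 3.

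In KO cells, 5005 of 13763 genes tested (36.4%) were called between 30 h and 18 h, by the quasi-likelihood test of edgeR at a Benjamini-Hochberg adjusted p under 0.05. The spread in this test was estimated from all 21 KO libraries, most of them from other times. Of the genes tested, 2567 (18.7%) were higher at 30 h and 2438 (17.7%) were lower. Most changes were small. The median size of the log2 fold change was 0.16 over all genes and 0.29 over the called genes. Called changes reached 1.5-fold for 678 genes, 410 of them higher and 268 lower. They reached 2-fold for 168 genes (1.22%), of which 108 (0.785%) were higher and 60 (0.436%) lower. The 3 libraries of 30 h and the 3 of 18 h did not overlap for 5558 genes (40.4%), with 30 h above for 2828 (20.5%) and below for 2730 (19.8%). The count of called genes was 6125 without replicate 1 of 30 h, 3544 without replicate 2 and 3642 without replicate 3. It was 2556 (18.6%) when all 42 libraries shared the estimate of spread, and 2452 when only the 6 libraries were fitted.

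Of the genes tested, 3611 (26.2%) were called, averaged 10 or more CPM (counts scaled to a common library size, after TMM normalization) and had no overlap between the 2 times. The largest rise among them was that of ENSRNOG00000007319. Its level at 18 h was 66.9, 62.9 and 65.2 CPM in replicates 1, 2 and 3. At 30 h it was 236, 451 and 450 CPM. All 30 h libraries lay far above all 18 h libraries, and replicate 1 lay between the 18 h libraries and the other 30 h replicates. On the log2 scale the rise was 2.56 (SE 0.21, adjusted p 1.75e-07 by edgeR). The rise began before 30 h and unevenly, since the 26 h libraries held 154, 79.8 and 159 CPM while the 22 h libraries held 63.7, 62.9 and 68.2 CPM. At 34 h it stood at 453, 446 and 474 CPM, close to replicates 2 and 3 of 30 h and well above replicate 1. Against 22 h the log2 fold change at 34 h was 2.84 (adjusted p 1.75e-08 by edgeR).

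The second rise was that of ENSRNOG00000021201, with 25.4, 24.0 and 23 CPM at 18 h and 91.2, 119 and 129 CPM at 30 h. The groups did not overlap, and the lowest 30 h library was again replicate 1. On the log2 scale it rose by 2.23 (SE 0.20, adjusted p 2.78e-07 by edgeR). It too was uneven at 26 h, with 76.1, 33.6 and 72.1 CPM, where replicate 2 was nearest to the earlier times. At 34 h the libraries were even, with 110.5, 111.7 and 111.6 CPM, and the log2 fold change against 22 h was 2.12 (adjusted p 8.37e-08 by edgeR).

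The deepest fall by this rule was that of ENSRNOG00000061528, from 45.8, 33.1 and 17.7 CPM at 18 h to 6.32, 9.94 and 7.70 CPM at 30 h. On the log2 scale the change was -2.00 (SE 0.55, adjusted p 0.00829 by edgeR). This gene was uneven between KO libraries at most times. It ranged from 4.43 to 45.8 CPM over the 21 KO libraries with a median of 13.4 CPM, and replicates of 14 h held 19.2, 36.7 and 4.43 CPM. Its mean was highest at 18 h. Between 34 h and 22 h its log2 fold change was 1.09 and did not pass the test (adjusted p 0.102 by edgeR). The call at 30 h was lost when a minimum change of 1.5-fold was required (adjusted p 0.378 by edgeR), which the 3 other genes given here passed. Under the other settings tried, DESeq2 among them, its adjusted p ran from 0.00146 to 0.0419. Replicate 1 was the lowest of the 30 h libraries.

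The next fall was that of ENSRNOG00000034093, which held 26.7, 23.1 and 23.7 CPM at 18 h and 13.6, 5.55 and 6.57 CPM at 30 h. All 30 h libraries lay below all 18 h libraries, and replicate 1 lay between the 18 h libraries and replicates 2 and 3. The change was -1.52 on the log2 scale (SE 0.19, adjusted p 1.04e-05 by edgeR). The gene had moved before, with 18.3, 19.0 and 20.2 CPM at 22 h and 15.6, 16.0 and 15.9 CPM at 26 h. At 34 h the gene stood at 6.88, 7.65 and 6.43 CPM, close to replicates 2 and 3 of 30 h, and the log2 fold change against 22 h was -1.44 (adjusted p 4.23e-06 by edgeR).

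**Figure D1:**
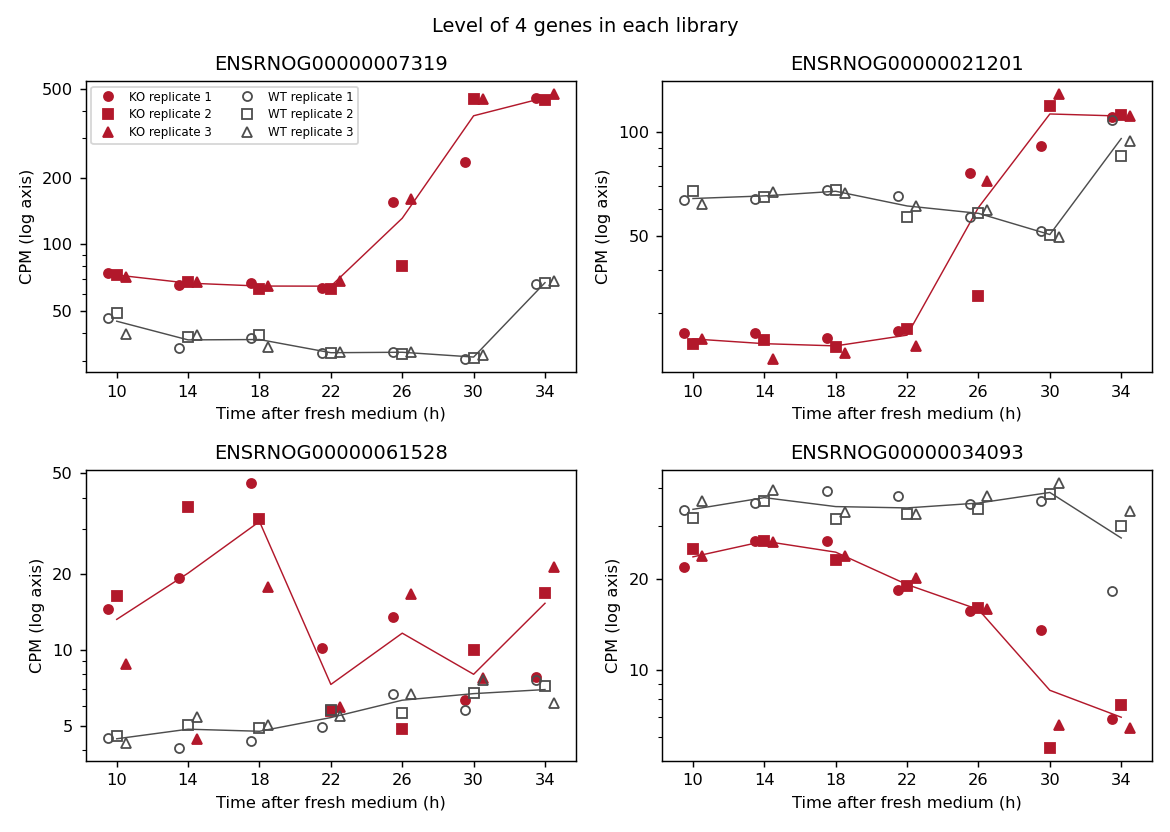
Level of the 4 genes in every library, in CPM on a log axis, against time after fresh medium in hours. Filled red symbols are KO libraries, open grey symbols WT libraries, symbol shapes mark replicates 1, 2 and 3, and lines join the group means. In 3 of the 4 panels replicate 1 of KO 30 h lies between the earlier KO libraries and the other 30 h replicates, and ENSRNOG00000061528 scatters from 4.43 to 45.8 CPM.

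The unevenness at 30 h was then described gene by gene, as the difference of each 30 h library from the mean of the 18 h libraries on the scale of log2 CPM (prior count 2). The split of the replicates was known from earlier results, so that these counts carry no test. A gene counted as moved in a library at a difference of at least 1.5-fold. Replicate 1 had 667 moved genes, 332 higher and 335 lower. Replicate 2 had 1627, with 846 higher and 781 lower, and replicate 3 had 1515, with 801 higher and 714 lower. At 2-fold the counts were 188, 416 and 383. The standard deviation of the difference over genes was 0.305 in replicate 1, 0.426 in replicate 2 and 0.412 in replicate 3. Each 18 h library set against the mean of the other 18 h libraries gave 0.254 to 0.261. Those references are means of 2 libraries and not of 3, which adds noise, so the values are not on an equal footing.

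**Figure D2:**
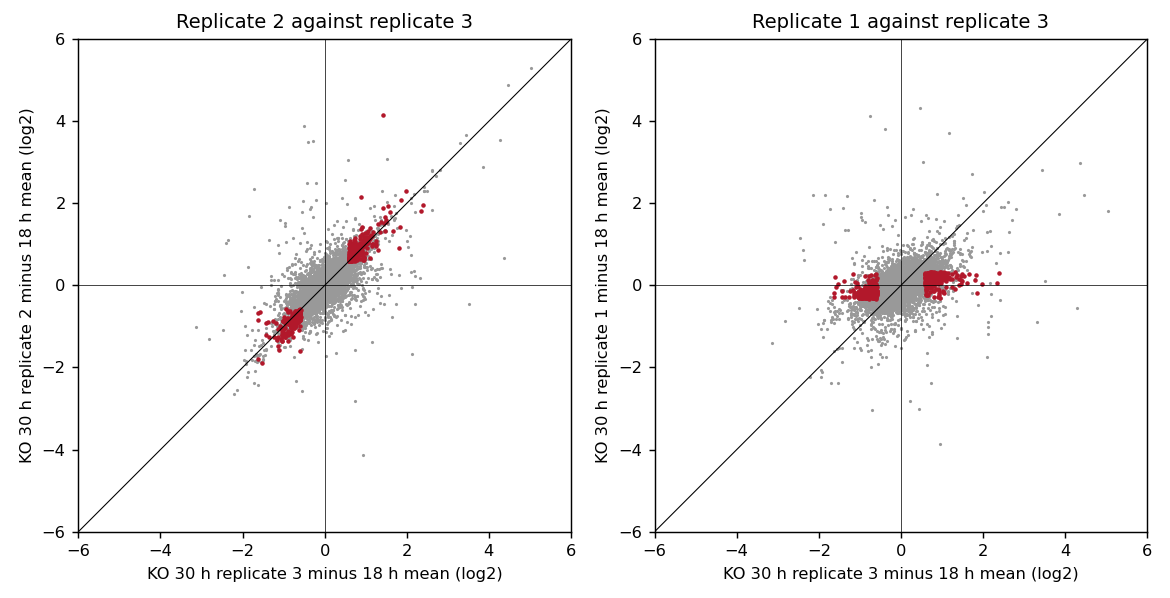
Difference of each KO 30 h library from the 18 h mean, in log2 CPM, for 13763 genes. The left panel sets replicate 2 against replicate 3 and the right panel replicate 1 against replicate 3, with the line of equality, and red points are 434 genes that moved in replicates 2 and 3 while replicate 1 stayed within 0.32 of the 18 h mean. All differences share the 18 h mean. The red genes lie along the line on the left and near 0 on the vertical axis on the right.

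Genes that moved in both replicates 2 and 3 and not in replicate 1 were the largest class. That class held 723 genes, 390 higher and 333 lower. By contrast 67 genes moved in replicates 1 and 2 only, 77 in replicates 1 and 3 only, and 230 in all 3 (136 higher and 94 lower). Replicate 1 alone moved for 217 genes, replicate 2 alone for 549 and replicate 3 alone for 415. The genes of replicate 1 alone were weakly expressed, with a median of 1.37 CPM, whereas the genes of replicates 2 and 3 had a median of 14.4 CPM. For 83 genes the moved libraries went in opposite directions. No library moved for 11402 genes.

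**Figure D3:**
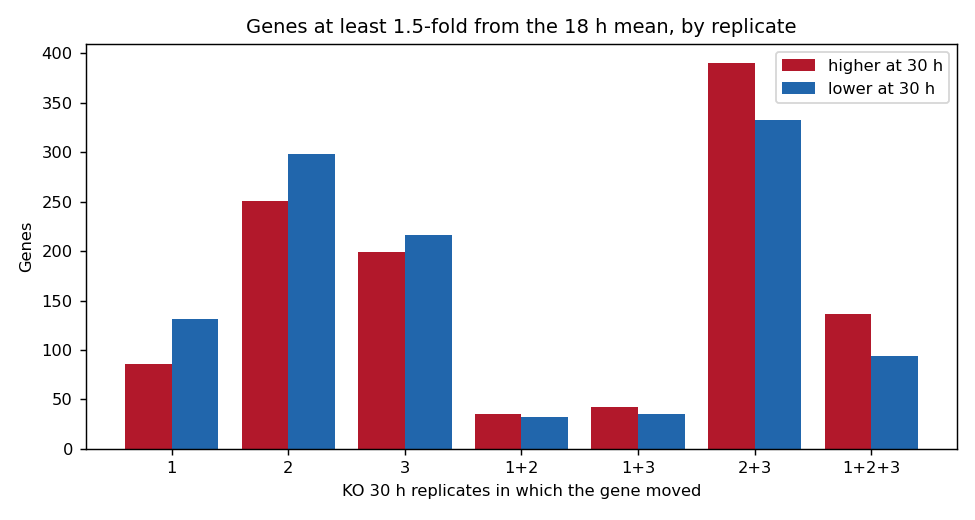
Number of genes at least 1.5-fold from the KO 18 h mean, by the set of KO 30 h replicates in which they moved and by direction. Bars of replicates 2 and 3 together reach 390 genes higher and 333 lower, against 42 or fewer for either pair that contains replicate 1.

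A narrower class was set for genes that left the 18 h level in replicates 2 and 3 and stayed near it in replicate 1, with a difference under 0.32 on the log2 scale. It held 434 genes (3.15%), 227 higher and 207 lower in replicates 2 and 3. The same rule gave 35 genes for replicates 1 and 3 without replicate 2, and 27 genes for replicates 1 and 2 without replicate 3. With 2-fold as the size that counts as moved, these numbers were 61, 6 and 0. The 227 higher genes had a median level of 11.8 CPM and the 207 lower genes one of 25.3 CPM, against 22.9 CPM over all genes. Most of them passed the comparison of 30 h with 18 h even with replicate 1 in it, namely 196 of the 227 and 176 of the 207, but those libraries chose them and the counts support nothing.

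The libraries of 34 h and 22 h were not used to pick these genes, and they are 12 h apart as well. Between them 7613 KO genes (55.3%) were called by edgeR, 3774 (27.4%) higher and 3839 (27.9%) lower at 34 h. Of the 227 higher genes of this narrower class, 200 (88.1%) were called higher at 34 h than at 22 h and 0 lower. Of the 207 lower genes, 182 (87.9%) were called lower and 0 higher. At an unadjusted p under 0.05 in edgeR, 205 of the 227 were higher and 0 lower, and 185 of the 207 were lower and 0 higher. Of all genes 59.9% passed at this threshold, 4104 higher and 4140 lower. DESeq2 called 200 of the 227 higher and 183 of the 207 lower, with 0 in the opposite direction in either set. The median log2 fold change at 34 h against 22 h was 0.90 for the first set and -0.85 for the second, beside a median of -0.0021 over all genes. The middle 80% of the first set ran from 0.48 to 1.46 and that of the second from -1.28 to -0.50.

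The wider classes were also read at 34 h, where 27.4% of all genes were called higher than at 22 h and 27.9% lower. Of the 723 genes moved in replicates 2 and 3 only, 616 (85.2%) were called in the same direction at 34 h against 22 h and 0 in the opposite one, where DESeq2 and an unadjusted p under 0.05 in edgeR gave 0 as well. For the 67 genes of replicates 1 and 2 only these counts were 12 and 2, and for the 77 genes of replicates 1 and 3 only they were 11 and 6. Of the genes moved in replicate 1 alone, 20 of 217 (9.22%) were called in the same direction and 26 in the opposite one. Replicate 2 alone gave 350 of 549 genes (63.8%) in the same direction and 5 in the opposite one, and replicate 3 alone 177 of 415 (42.7%) and 9. For the 230 genes that moved in all 3 replicates the counts were 155 (67.4%) and 8. The classes differ in expression, from 1.29 to 14.4 CPM at the median, and the part of this in the counts was not tested.

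The same 2 sets were followed through each KO library, as the median over genes of log2 CPM minus the 22 h mean. For the 227 genes the 34 h libraries lay at 0.87, 0.93 and 0.88 in replicates 1, 2 and 3. Replicates 2 and 3 of 30 h, which chose the genes, lay at 0.80 and 0.75, and replicate 1 at 0.13. At 26 h the medians were 0.12, 0.012 and 0.13. In both sets the rule kept replicate 1 of 30 h near the 18 h level, so its small median was set by the choice. No likeness to the 26 h libraries is read from it. For the 207 genes the 34 h libraries lay at -0.82, -0.84 and -0.86, replicate 1 of 30 h at -0.15, and the 26 h libraries at -0.084, -0.0038 and -0.089. From 10 to 18 h the medians stayed between -0.017 and 0.084 for the 227 genes and between -0.059 and 0.038 for the 207 genes.

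**Figure D4:**
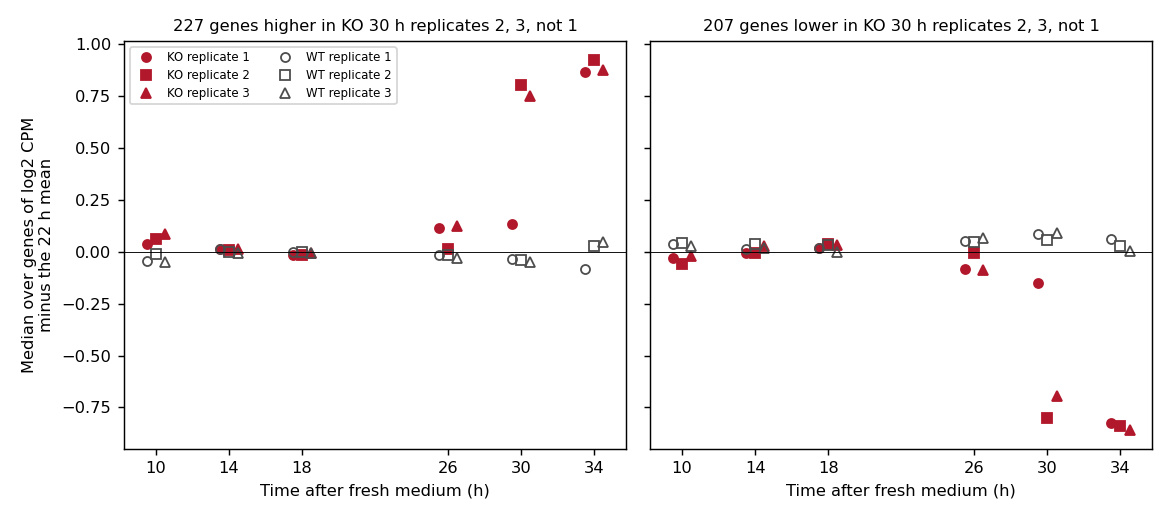
Median over genes of log2 CPM minus the 22 h mean of the same genotype, for each library, against time after fresh medium in hours. The left panel shows the 227 genes that were higher and the right panel the 207 genes that were lower in KO 30 h replicates 2 and 3 with replicate 1 near the 18 h level, filled red symbols KO and open grey symbols WT. All KO 34 h libraries lie at 0.87 or above on the left and at -0.82 or below on the right. Replicates 2 and 3 of 30 h lie next to them. Replicate 1 of 30 h, kept near the 18 h level by the rule, lies near the 26 h libraries.

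All genes were also used, without any choice by the 30 h libraries. For each library the difference from the 18 h mean was regressed over genes on the difference of 34 h from 22 h. A slope of 0 means no move along the late change and a slope of 1, without noise, the whole of it. Noise in the difference of 34 h from 22 h lowers the slopes, by an amount that was not measured. Genes are not independent replicates, so these slopes are descriptions. The slope was 0.18 for replicate 1 of 30 h, 0.69 for replicate 2 and 0.61 for replicate 3. At 26 h it was 0.099, -0.028 and 0.14, with replicate 2 the lowest. Libraries of 10 and 14 h had slopes of -0.011 to 0.079, and the 18 h libraries, each against the others of that time, -0.0068 to 0.012. The 22 h libraries are part of the late change itself and got no slope. Replicate 1 of 30 h was above the libraries of 10, 14, 18 and 26 h on this measure, and far below its companions.

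**Figure D5:**
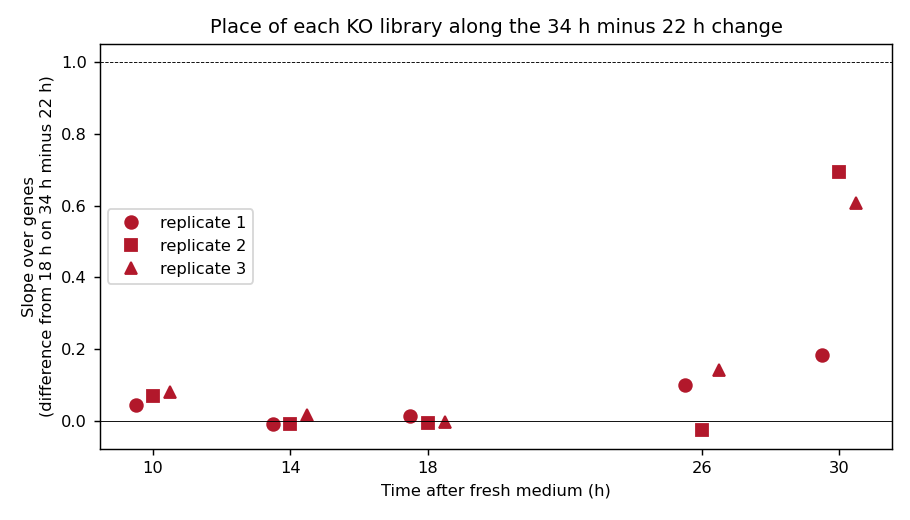
Slope over genes of each KO library's log2 difference from the 18 h mean on the difference of 34 h from 22 h, against time after fresh medium in hours, 1 symbol per library. The dashed line at 1 marks the whole late change in the absence of noise, which lowers the slopes. Replicates 2 and 3 of 30 h lie at 0.69 and 0.61 and replicate 1 at 0.18, nearest to replicate 3 of 26 h at 0.14.

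Of the 7613 genes called between 34 h and 22 h, 72.4% had replicate 1 of 30 h on the 34 h side of the 18 h mean, against 94.1% for replicate 2 and 91.8% for replicate 3. The median move in that direction was 0.081, 0.27 and 0.24 on the log2 scale. Over the 465 of these genes (3.38%) with at least 2-fold change the median moves were 0.23, 0.98 and 0.86, and 99, 371 and 337 of them were moved by 1.5-fold in the 34 h direction in replicates 1, 2 and 3. Replicate 1 thus lay on the 34 h side for most of the called genes by sign, but by a small amount, and most genes with a 2-fold late change did not reach 1.5-fold in it. When each 30 h library was set against the mean of every other KO time, replicate 1 was nearest to 26 h, with a median absolute difference of 0.093 in log2 CPM and 470 genes at 1.5-fold or more, against 0.21 and 1601 genes for 34 h. Replicates 2 and 3 were nearest to 34 h, with 0.11 and 0.12 and with 456 and 635 genes, against 0.19 and 0.18 and 1294 and 1172 genes for 26 h.

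Among the genes called at 30 h against 18 h, replicate 1 was the library nearest to the 18 h mean for 79.6%, replicate 2 for 10.8% and replicate 3 for 9.53%. Over all genes the shares were 57.6%, 21% and 21.4%. Of the 168 genes called with at least 2-fold change, replicate 1 had moved by 1.5-fold in the called direction for 120, replicate 2 for 163 and replicate 3 for 158. The median moves of these genes were 0.81, 1.5 and 1.46. These genes were picked by a mean change that includes replicate 1, so the counts are a description of the called genes only.

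Whether the change from 18 to 30 h was the same in WT cells was tested on all 42 libraries. In WT 323 of 13776 genes (2.34%) were called by edgeR, 107 (0.777%) higher and 216 (1.57%) lower at 30 h, and in KO 2556 genes were called in the same fit. The difference between the genotypes itself was called for 1824 genes (13.2%), 990 (7.19%) with the more positive change in KO and 834 (6.05%) with the more negative. The calls of the genotypes had 133 genes in common, 42 with equal and 91 with opposite signs. The biological coefficient of variation was 0.14 over the 42 libraries and 0.092 without replicate 1 of WT 34 h. Without that library the difference was called for 4012 genes and 1740 genes were called in WT. The WT count was 114 and 116 without replicate 2 or 1 of WT 18 h, and 181, 124 and 162 without replicate 1, 2 or 3 of WT 30 h. Without replicate 2 or 3 of KO 30 h the difference was called for 1147 or 1215 genes, and without replicate 1 for 2583.

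All 4 genes given above passed the test of the difference between the genotypes. They were picked by their large change in the same KO libraries, so that result is partly set by the choice. ENSRNOG00000007319 held 38.0, 39.4 and 34.7 CPM in WT at 18 h and 30.6, 31.0 and 31.9 CPM at 30 h, which is -0.26 on the log2 scale (SE 0.17, adjusted p 0.548 by edgeR). ENSRNOG00000021201 held 68.0, 67.9 and 66.6 CPM and then 51.7, 50.5 and 49.7 CPM, with -0.41 (SE 0.15, adjusted p 0.186 by edgeR). In WT the 30 h libraries of both genes lay below all 18 h libraries, and in KO above. Neither WT change was called, and the share of all genes without overlap was not counted in WT. ENSRNOG00000061528 held 4.35 to 5.01 CPM at 18 h and 5.74 to 7.61 CPM at 30 h in WT, and ENSRNOG00000034093 held 31.6 to 39.1 CPM and 36.3 to 41.5 CPM.

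The narrower class was read in WT as well, from libraries that did not choose it. Of the 227 genes higher in KO replicates 2 and 3, 1 was called higher and 4 lower in WT between 18 and 30 h by edgeR, which is 2.2% beside 2.35% of the genes tested in KO. Of the 207 lower genes, 0 were called higher and 2 lower (0.966%). At an unadjusted p under 0.05, 13 of the 227 were higher and 28 lower, and 12 of the 207 were higher and 6 lower, 18.1% and 8.7% beside 13.1% of all genes. DESeq2 called 2 higher and 7 lower of the 227 (3.96%), and 0 higher and 2 lower of the 207 (0.966%), beside 3.47% of all genes. Without replicate 1 of WT 34 h, edgeR called 9 of the 227 higher and 14 lower (10.1%) and 8 of the 207 higher and 5 lower (6.28%), beside 12.6% of all genes. The adjusted shares were near or below those of all genes. With all 42 libraries the unadjusted share of the 227 was above that of all genes. Without replicate 1 of WT 34 h, 18 of the 227 were higher and 33 lower (22.5%) at an unadjusted p under 0.05 in edgeR. Of the 207, 38 were higher and 12 lower (24.2%), beside 1781 and 1894 of all genes (26.7%). In that fit both unadjusted shares were below that of all genes. Nothing particular to these genes is read from the shares, and the directions were not tested. The median WT log2 fold change was -0.07 for the first set and 0.059 for the second, beside -0.0035 over all genes.

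The WT libraries of 30 h were also compared with each other over all genes, as was done in KO. Between WT replicates 131, 173 and 172 genes differed by at least 2-fold in the pairs 1 and 2, 1 and 3, and 2 and 3. Their chi-square values were 15.5, 20.7 and 15.6 per degree of freedom. In KO the pairs with replicate 1 had 345 and 287 such genes and 54.3 and 38.3, and the pair without it 175 and 12.1. The difference in spread between the genotypes was not tested.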

How the data were processed

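For KO and for WT the authors deposited a table of raw gene counts, without normalization, and the submitters' processing notes name featureCounts as the counter. The aligner, genome build, annotation and strand setting are not given in the sources used here, so genes that overlap or have near-identical copies are uncertain. Of 13776 identifiers, 0 matched a symbol.

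The tests used edgeR 4.0.16 under R 4.3.3 (quasi-likelihood, TMM scaling, filterByExpr, which removed 13 genes) on the 21 KO libraries with a mean per time, and on all 42 libraries for the difference between genotypes. The 21-library fit was chosen because, in earlier results, 1 WT library widened the shared spread. CPM levels of single genes use the scaling of all 42 libraries. The naming rule ranked called genes without overlap, at 10 or more CPM on average, by size of change. It also asked for a symbol, which could not be applied, so the first 2 identifiers per direction are given. Parts of the rule that rest on symbols, and 24 gene lists, were not used. The comparison, lists and thresholds were chosen with earlier results of these data known.

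On simulated counts for 13758 genes, the KO test of 30 h against 18 h recovered 88% of genes changed by 2-fold and 67% of those changed by 1.5-fold, with 9 false calls. For the difference between genotypes, over 13776 genes, recovery was 71% and 31% with 3 false calls. The simulated counts were independent, with 100 genes changed at each size and no replicate set apart. In the data 36.4% of genes were called in KO and replicate 1 of 30 h stood apart, so these figures need not hold there. Alternatives included DESeq2 1.42.0, other scalings and left-out libraries.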

Additional observations from a re-analysis of the deposited data

Results flagged for a closer look

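The change from 18 to 30 h differed between KO and WT, by a direct test of the difference on all 42 libraries with edgeR, for 1824 genes. They include the 4 genes described above, which were picked by their change in the same KO libraries. The p-values below do not allow for that choice. The difference in log2 fold change, KO minus WT, was 2.81 (SE 0.24, adjusted p 1.8e-09 by edgeR) for ENSRNOG00000007319 and 2.64 (SE 0.22, adjusted p 1.8e-09 by edgeR) for ENSRNOG00000021201. It was -2.50 (SE 0.63, adjusted p 0.00663 by edgeR) for ENSRNOG00000061528 and -1.68 (SE 0.26, adjusted p 4.22e-05 by edgeR) for ENSRNOG00000034093.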

How the results depend on the processing

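Of 139 values under other settings, over 10 results, 120 stayed close to those reported: a fold change with its sign and call, a count within 1.5 times, a share of higher genes within its exact binomial 95% interval (49.9% to 52.7%, genes taken as independent). The alternatives for WT, and the removal of 18 h libraries from the count of genes moved in replicates 2 and 3, were chosen after the data were seen. For 30 h against 18 h in KO, 2452 genes were called with only the 6 libraries, 2556 with all 42 and 67 where the test required more than 1.5-fold, and 3544 to 6125 with a library left out. The share higher was 51.3%, with 47.6% under library totals, 59.7% against the 1.5-fold minimum and 50.6% to 52.1% with a library left out. Of 60 alternative fold changes of the 4 genes, 59 kept sign and call. For 34 h against 22 h, 4969 genes were called with all 42 libraries and 6807 to 7195 with a library left out. The difference between genotypes was called for 1147 to 4012 genes with a library left out, and the WT change for 114 to 1740, and for 640 with only the 12 libraries of 18 and 30 h. The genes moved in replicates 2 and 3 and not in replicate 1 numbered 61 at 2-fold, 144 with under 1.1-fold as unmoved, and 415 to 445 with an 18 h library left out. For counts that moved through fewer libraries or a stricter size, the setting itself is the change. For the rest, the cause was not tested.

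With the replicate number as a block, 5153 genes were called for 30 h against 18 h, 7711 for 34 h against 22 h, 1805 for the difference and 305 in WT. Deviations of same-numbered libraries of 18 and 30 h correlated at 0.037, -0.0091 and 0.046 over genes. Replicates 1 and 3 correlated best with their own number and replicate 2 did not. Values this small show no clear pairing by number, but they cannot settle whether the samples were paired.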

Other observations

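Both genes with the largest rise in KO were also higher in WT at the last time. ENSRNOG00000007319 held 66.6, 66.8 and 68.6 CPM in the 3 WT libraries of 34 h, against 30.6 to 31.9 CPM at 30 h. ENSRNOG00000021201 held 108, 85.2 and 94.0 CPM at 34 h, against 49.7 to 51.7 CPM at 30 h. In KO the first gene left its early level by 26 h, in replicates 1 and 3 of that time and less so in replicate 2. No test of the time of the rise was made.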
